A study of Mus musculus with 9 samples.

Results

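The 3 libraries described here are the control arm of an RNA-seq study of the mouse hippocampus, and they were chosen by their label alone: every count column of the group that received a non-targeting shRNA, 3 of the 9 libraries in the series. The study asked what happens to gene expression when Camta1, a calmodulin-binding transcription activator, is knocked down; no contrast with the knock-down libraries is made here. All 3 control mice were males of the inbred strain C57BL/6NCrl. At 8 weeks of age a recombinant adeno-associated virus (rAAV) expressing the control shRNA was injected stereotaxically into the dorsal hippocampus. The tissue was taken 3 weeks later, and the infected pieces were found by their mCherry fluorescence, a red marker, and cut out by eye under the microscope. The libraries are therefore not from untouched animals: each animal had surgery, a virus, an expressed shRNA and a marker protein. The series' design states that each group had 3 animals, so each library is taken as 1 mouse, called control 1, control 2 and control 3 below. The promoter that drove the shRNA, the cell types it reached and the share of uninfected cells in the piece are not given in the sources used here.

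The hippocampus stores and retrieves memories of places and events. Its excitatory cells are the granule cells of the dentate gyrus and the pyramidal cells of the CA fields, which signal with glutamate, and a smaller set of interneurons restrains them with GABA. Fast excitation runs through AMPA and NMDA receptors, inhibition through GABA-A receptors, and calcium that enters through NMDA receptors acts through calmodulin and its kinase CaMKII to change synaptic strength.

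Total counts were 29123744, 32406247 and 31693719, and levels are given as CPM, read counts scaled to a common library size. At these depths 1 read stood for 0.0337, 0.0316 and 0.0313 CPM. In all 3 libraries, between 20006 and 20261 of the 31804 listed genes had a read, protein-coding genes took 96.8 to 97.1% of counts, the 10 highest genes took 5.16 to 5.60%, and the mitochondrial genome took 3.49 to 4.11%. A mean of at least 1 CPM was reached by 14508 genes, at least 100 CPM by 2249 and at least 1000 CPM by 85. Levels of different genes are compared below only as CPM per kilobase (kb) of a gene's annotated exons, and where the choice of length matters also per kb of its coding sequence (both merged over annotated isoforms), because long annotated untranslated regions lower the value per kb of exon. Both divide all reads of a gene by a length, so reads in untranslated exons raise the value per kb of coding sequence. With 1 group there is nothing to test, so p-values are absent, and 2 genes are said to differ in level only where the 3 values of the first lie wholly above those of the second. In bulk tissue, fewer cells of a type and less RNA per cell cannot be told apart.

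Neuronal genes stood high in every library: Snap25, a SNARE protein of the synapse, was at 1914, 2098 and 1784 CPM in controls 1, 2 and 3. Markers of each hippocampal field were present, with Prox1, the transcription factor of dentate granule cells, at 120.1, 103 and 149 CPM and Wfs1, a marker of CA1 pyramidal cells, at 119, 242 and 237 CPM. The vesicular transporter of cortical and hippocampal glutamate neurons, Slc17a7, was at 359, 434 and 346 CPM per kb, and Slc17a6, its counterpart in thalamus and brainstem, at 1.80, 1.25 and 1.98. Of 7 genes that mark cerebellum or hindbrain, 3 had 3 counts or fewer in every library: Gabra6 had 1 read in all, and Hoxb3 and Hoxc4 had none, which allows up to 0.101, 0.0949 and 0.0940 CPM in the 3 libraries. Slc6a5 had at most 4 reads and En2 stayed under 1 CPM, while Pcp2 had 4.35, 3.95 and 3.89 and Cbln1 2.26, 2.88 and 2.66 CPM. Of 38 Hox genes in the table, 0 reached 1 CPM. Of 906 olfactory receptor genes, 1 did, Olfr288 at 2.35 ± 0.34 CPM (SD, n = 3). All 4 Y-linked genes of the list were read in every library, as the label male calls for, with Ddx3y at 53.8, 43.8 and 44.7 CPM.

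The highest protein-coding nuclear transcripts per kb included some of synapses, secretion and glia. Nrgn, which encodes neurogranin, a calmodulin-binding protein of dendritic spines, had the highest mean, 1299 ± 238 CPM per kb. The next means were those of Cpe, which encodes a peptide-processing enzyme of secretory vesicles, at 1155 ± 119, and of Ddn, which encodes the dendritic protein dendrin, at 1115 ± 58.2 CPM per kb (SD, n = 3 each). The 3 genes' values overlapped, and Nrgn was the lowest of them in control 1. Sepw1, Camk2a, Hpca, Apoe, Ncdn, Cst3, Calm2, Psap and Atp1b1 completed the highest 15 together with 3 entries of under 0.1 kb, Gm23935, Gm24270 and Mir1906-1. All transcript sequence of those 3 short entries is shared with other genes, so their levels cannot be assigned to them. Hpca, which encodes the neuronal calcium sensor hippocalcin, varied most of the 15, with 2151, 3435 and 2691 CPM in controls 1, 2 and 3. Psap, which encodes a precursor of lysosomal activator proteins, varied least, with 1766, 1827 and 1789 CPM.

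Calmodulin, the calcium sensor that Camta1 and CaMKII bind, shows how far reads can tell like genes apart: Calm2 and Calm3 encode it with coding sequences that differ at many bases. In build GRCm38 of the GENCODE M21 annotation, Calm2 spans chr17:87433412-87446935 and Calm3 spans chr7:16915379-16924114, both on the minus strand. The first 90 of their 447 coding bases follow, with capitals at the positions where they differ.
Calm2: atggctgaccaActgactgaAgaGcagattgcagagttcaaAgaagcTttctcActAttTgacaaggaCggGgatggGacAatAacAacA
Calm3: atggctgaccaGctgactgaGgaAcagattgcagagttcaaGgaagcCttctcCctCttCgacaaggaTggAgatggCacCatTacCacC
Over the whole coding sequence they were identical at 369 of 447 bases (82.6%), and the longest stretch without a difference was 17 bases. Over whole transcripts, 18.1% of the 31-base windows of Calm2 and 4.99% of those of Calm3 also occurred in another gene.

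Calm2 had 677, 727 and 682 CPM per kb of exon in controls 1, 2 and 3, and Calm3 had 369, 450.3 and 397. Per kb of exon all 3 libraries of Calm2 stood above all of Calm3. Per kb of coding sequence merged over isoforms Calm2 had 2222, 2388 and 2237 and Calm3 1627, 1987 and 1751, in the same order but closer together. That order rests on a merged length for Calm3 above the 447 bases given for both genes. With 447 bases for each, the order is that of CPM, where Calm2 had 993, 1067 and 1000 and Calm3 893, 1091 and 961. These values overlapped, so on that length the 2 genes are not said to differ. Among the CaMKII genes, Camk2a held 80.6% ± 1.59 of the family's summed CPM per kb, ahead of Camk2b at 196, 235 and 246 CPM per kb. Camk2g and Camk2d, the more widely expressed isoforms, had means of 33.1 ± 1.76 and 1.38 ± 0.167. Of the catalytic subunits of calcineurin, the phosphatase that opposes CaMKII, Ppp3ca held 78.9% ± 1.89. Camta2 held 84.0% ± 1.91 of the CAMTA family per kb of exon and 71.9% per kb of coding sequence. Camta1, the gene that the study targeted in its other arms, had 30.1 ± 0.950 CPM per kb (SD, n = 3), nearly the same in the 3 mice.

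Across 90 gene families of receptors, channels, synaptic and cytoskeletal proteins, enzymes and transcription factors, with 497 members in the table, the highest member was mostly the same in each mouse. The same member was highest in all 3 libraries in 84 families, and in 79 its 3 values lay above all values of the next member. In 63 families it held more than 50% of the family's summed CPM per kb. The standard deviation of that share over the 3 mice was 1.54 percentage points in the median family and 7.17 at most, in the somatostatin receptors. A mean of at least 1 CPM was reached by 427 of the 497 members, and 28 had 3 counts or fewer in every library. Exons of 40 members overlap those of another protein-coding gene, and since the libraries did not keep strand, reads there cannot be told apart.

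How firmly a leading member can be named depended on the length used. With the coding length in place of all exons the leading member changed in 16 of the 90 families, with the longest transcript in 6, and with no length division in 18. In 67 families the same gene led under all 4 choices, and in 53 it led with over 50% both per kb of exon and per kb of coding sequence. The share plot gives both lengths for receptor and channel families.

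**Figure D1:**
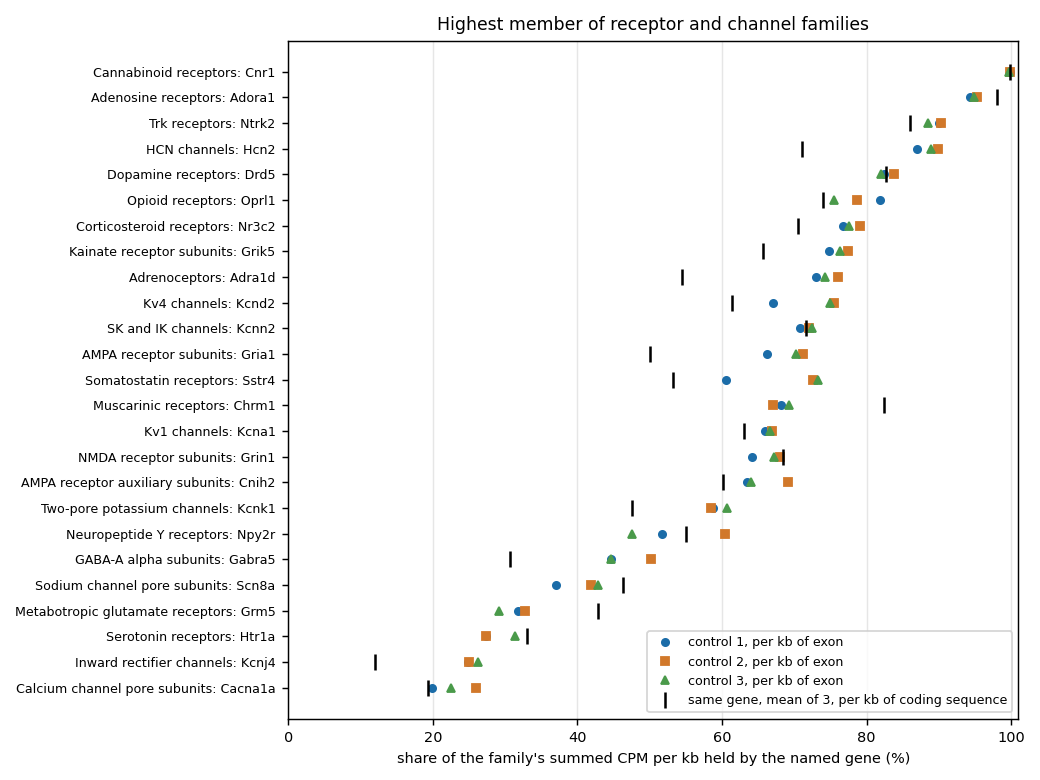
Share of a family's summed CPM per kb (x axis, %) held by its highest member, for the 25 receptor and channel families whose highest member is described here; circles, squares and triangles are controls 1, 2 and 3 per kb of exon, and the black bar is the mean of the same gene per kb of coding sequence. The 3 mice lie close together in nearly every family, while the black bar lies far from them in several, such as those of Adra1d and Hcn2.

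Among the pore subunits of the AMPA receptor, Gria1 led with 209.6, 241 and 242 CPM per kb of exon, 69.2% ± 2.59 of the family. Gria2, whose edited subunit keeps calcium out, had 72.1, 64.2 and 68.9. Gria3 followed with 26.9, 26.3 and 27.0 and Gria4 with 7.75, 7.10 and 6.78, and none of the 4 ranges overlapped. Per kb of coding sequence the lead of Gria1 over Gria2 narrowed to 492 against 379, a share of 50.1%, since Gria2 has 15.5 kb of annotated exon and Gria1 has 6.04. Of the proteins that escort the receptor, Cnih2 (cornichon) stood far above the rest at 427, 595 and 483 CPM per kb. It held 65.5% ± 3.11 of a set of 12, all of which passed 1 CPM. Cacng7 was next at 70.0, 71.8 and 71.0 and Cacng8, the hippocampal TARP, at 45.9, 61.1 and 57.0. Control 1 was lowest for Cnih2 and Cacng8 and highest for Cnih3, at 36.2, 22.3 and 28.2.

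Grin1, the obligatory subunit of the NMDA receptor, had 69.3, 87.8 and 83.9 CPM per kb of exon. The second place turned on the length. Per kb of exon it went to Grin2c, with 16.5, 17.2 and 16.2, before Grin2b with 9.89 ± 1.31 and Grin2a with 5.28, 6.58 and 6.90. Per kb of coding sequence the means were 55.2 for Grin2b, 25.5 for Grin2a and 22.5 for Grin2c. Annotated exons add up to 24.8 kb for Grin2b and 17.9 kb for Grin2a against 5.04 kb for Grin2c. Grin1 led under each length. Of the kainate subunits, Grik5 led with 67.9, 77.8 and 67.8, ahead of Grik4, an accessory subunit concentrated in CA3, with 13.4, 14.5 and 11.9. Among the metabotropic glutamate receptors, Grm5 led with 29.7, 29.0 and 28.0, while Grm2 and Grm3 overlapped at 20.6, 17.3 and 24.9 and 21.4, 20.7 and 19.8. Grm6, the receptor of retinal bipolar cells, had 1 read in the 3 libraries.

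Of the GABA-A receptor genes, Gabra5, the subunit of extrasynaptic receptors for which the hippocampus is known, had 63.2, 73.0 and 60.0 CPM per kb of exon and was highest in control 2. Of the beta subunits, Gabrb2 had 39.4, 36.1 and 39.3 and Gabrb1 3.93, 3.64 and 3.43, and their ranges lay apart. Gabrd, of tonic inhibition in the dentate gyrus, was highest in control 3 at 9.12, 8.27 and 11.3. So were 6 of the 7 dentate granule markers, against 31.5% of all genes. Gabra6, of cerebellar granule cells, was at the floor.

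**Figure D2:**
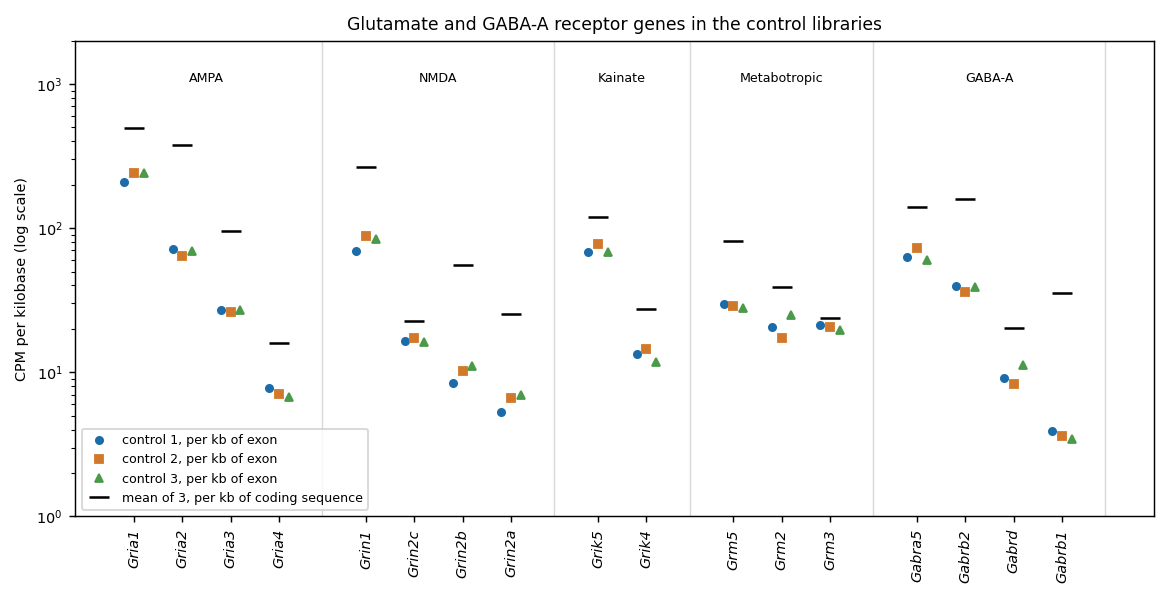
CPM per kb (y axis, log scale) of 17 glutamate and GABA-A receptor genes described here; coloured points are the 3 control libraries per kb of exon and the black bar is their mean per kb of coding sequence. Within a gene the 3 libraries lie close, and the gap between points and bar is widest for genes with long untranslated exons such as Grin2b and Gabrb1.

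In several families of neuromodulator receptors 1 gene held most of the summed level. Chrm1, the muscarinic receptor of pyramidal cells, had 43.0, 52.4 and 50.5 CPM per kb of exon and 68.2% ± 1.07 of its family. Chrm3 stood at 6.70, 13.0 and 10.7 and was lowest in control 1. Adora1, which mediates inhibition by adenosine, held 94.8% ± 0.506, and Cnr1, the cannabinoid receptor of presynaptic terminals, held 99.8% ± 0.0454. Cnr1 was at 32.2, 30.9 and 25.8 CPM per kb and Adora1 at 55.2, 67.5 and 59.1. Htr1a led 14 serotonin receptors with 10.1, 10.1 and 11.1, a share of only 28.7% ± 2.32. The middle of that family was not ordered: the ranges of Htr5b, Htr3a and Htr4 overlapped from one to the next, and Htr3b had 3 counts or fewer in every library. Drd5, the D1-type dopamine receptor of the hippocampus, held 82.7% ± 0.984, although 48.1% of its transcript windows also occur elsewhere. Drd1 and Drd2 had 0.493, 0.619 and 0.872 and 1.09, 1.03 and 1.16.

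Adra1d led the adrenoceptors with 54.2, 63.2 and 51.2 CPM per kb of exon, and Oprl1, the nociceptin receptor, led the opioid receptors with 12.9, 10.5 and 9.96. Oprm1, the mu receptor, had only 0.176, 0.126 and 0.101. Sstr4 was the leading somatostatin receptor at 45.6, 58.1 and 53.1. Its share was 60.5, 72.6 and 73.3% in controls 1, 2 and 3. The low share in control 1 came with the lowest Sstr4 and a higher Sstr1 there, the latter at 28.6, 16.3 and 16.4 CPM, not per kb. Per kb of exon, Sstr4 stood 3.26, 7.31 and 6.63 times as high as Sstr1. Npy2r, which acts on presynaptic terminals, led the neuropeptide Y receptors at 14.1, 16.8 and 13.3, with Npy1r at 10.2, 8.50 and 11.6. Of the 3 neurotrophin receptors of the Trk family, Ntrk2, which binds BDNF, held 89.6% ± 0.996. Nr3c2, the mineralocorticoid receptor, exceeded the glucocorticoid receptor Nr3c1 in every mouse, with 34.9, 43.3 and 40.9 against 10.5, 11.4 and 11.8.

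Among voltage-gated sodium channels, the order of the leading pair was not fixed per kb of exon. Scn8a, of the axon initial segment, had 29.1, 33.6 and 34.7 CPM per kb of exon and Scn2a had 30.6, 29.4 and 27.8, so that Scn2a was higher in control 1 and Scn8a in controls 2 and 3. Per kb of coding sequence Scn8a led with 46.4% ± 3.22 of the family, and its 3 values lay above all values of the next member. Scn1a, known from interneurons, had 10.3, 10.4 and 10.1. Scn10a and Scn11a, of pain-sensing neurons, were at the floor of 3 counts. Calcium channel pore subunits were likewise mixed per kb of exon: Cacna1a (P/Q-type) had 20.9, 29.9 and 27.3, Cacna1h (T-type) 21.4, 21.7 and 28.4 and Cacna1e (R-type) 18.4, 18.6 and 20.9. Per kb of coding sequence Cacna1e led that family with 64.1, 64.7 and 72.9. The skeletal muscle and retinal genes Cacna1s and Cacna1f had means of 0.0719 ± 0.00977 and 0.0843 ± 0.0190 CPM per kb.

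Potassium channels showed a few strong leaders. Kcna1 had 47.3, 52.2 and 52.0 CPM per kb of exon and 66.5% ± 0.484 of the Kv1 family. Kcnd2, of the dendritic A-type current, had 25.6, 32.2 and 32.8 and was lowest in control 1. Among the HCN channels, Hcn2 led with 41.4, 58.4 and 48.4 CPM per kb of exon. Its share was 88.6% ± 1.50 per kb of exon and 71.1% per kb of coding sequence. Kcnj4 and Kcnj10, the latter an astrocyte channel, overlapped at the head of the inward rectifiers with 38.0, 39.6 and 46.0 and 36.8, 41.9 and 38.5. Per kb of coding sequence Kcnj10 had a mean of 186 and Kcnj4 of 66.4. Kcnj13, a channel of the choroid plexus, stood at 0.239, 0.0996 and 7.50, so that its place in the family was set by control 3 alone. Kcnk1 led the background potassium channels at 45.0, 46.1 and 50.5. Kcnn2 led the 4 calcium-activated channels of the SK and IK type at 12.5, 12.9 and 11.8.

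Among the genes of neurotransmitter release, Snap25 held 73.7% ± 1.10 of its family per kb of exon and 91.8% per kb of coding sequence. The share of Vamp2 was 87.2% ± 0.938 and 80.6%. Syn1, which encodes synapsin I of the vesicle surface, held 74.4% ± 2.41 per kb of exon but 53.6% per kb of coding sequence, where its values overlapped those of the next synapsin. Cplx2, a complexin, had 499, 499 and 497 CPM per kb. Syt11 and Syt1 had 173, 193 and 176 and 156, 172 and 149 per kb of exon, but Syt1, the calcium sensor of synchronous release, led per kb of coding sequence with 1027, 1135 and 986 against 699, 778 and 710.1. On the postsynaptic side, Dlg4, which encodes PSD-95, had 91.6, 107 and 98.4, Shank1 92.1, 114 and 98.0 and Nlgn2, the neuroligin of inhibitory synapses, 60.4, 72.0 and 69.0. Homer3 led its family per kb of exon with 22.0 ± 4.08. Homer1, the activity-regulated scaffold, led it per kb of coding sequence with 83.3, 102 and 87.0 against 60.5, 80.7 and 58.4.

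Energy and transport genes showed neuronal and glial isoforms side by side. Eno2, the neuronal enolase, held 86.5% ± 1.49 of its family per kb of exon and Hk1 94.7% ± 0.396 of the hexokinases. Aldoa and Aldoc, the latter an astrocyte gene, had 425, 471 and 394 and 322, 274 and 262. Slc1a2 and Slc1a3, the glutamate transporters of astrocytes, overlapped at 93.5, 91.9 and 86.6 and 88.3, 78.3 and 73.3 per kb of exon. Slc1a2 led per kb of coding sequence with 56.6% of the family. The GABA-making enzymes Gad1 and Gad2 had 25.5, 24.4 and 27.3 and 20.3, 20.5 and 19.8.

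Of the transcription factors, Thra, the thyroid hormone receptor alpha gene, had the highest level per kb among those listed, with 223, 232 and 205 CPM per kb of exon. Its exons overlap those of Nr1d1, which lies on the other strand, so reads there cannot be told apart. It held 84.4% ± 0.823 of the retinoid and thyroid receptors. Neurod6 and Neurod2, factors of mature excitatory neurons, had 76.5, 118 and 91.9 and 59.5, 76.3 and 73.9, while Neurod1, of young granule cells, had 12.6, 12.3 and 13.7. Zbtb18 had 87.0, 109 and 106. Nfix held 75.2% ± 0.630 of the nuclear factor I genes and Mef2d 68.5% ± 1.51 of the MEF2 genes, or 46.4% of them per kb of coding sequence. Bcl11b, a factor of dentate granule and other forebrain neurons, had 30.3, 35.9 and 42.9 and was highest in control 3. Lmo4 led 23 homeodomain and LIM factors of the forebrain with 54.3, 51.6 and 46.3, and Lhx2 had 21.6, 21.3 and 20.8. Klf9, which glucocorticoids and thyroid hormone induce, led 17 Kruppel-like factors with 37.1, 38.4 and 39.7.

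Immediate early factors were readable in tissue of animals with no stated stimulation. Egr1, which neurons induce within minutes of firing, had 34.0, 72.7 and 55.2 CPM per kb of exon, lowest in control 1 and highest in control 2. Egr4 had 18.5, 39.2 and 29.0 and Egr3 15.9, 26.1 and 21.4, in the same order of libraries. Jund followed that order, with 52.7, 66.1 and 58.8. Jun did not, with 50.9, 42.2 and 48.1, and was lowest in control 2. Fos, the factor most used to mark firing cells, had 5.85, 7.72 and 4.81. Beyond the families, 318 of 369 numbered zinc finger genes reached 1 CPM, and 52 of 92 orphan receptor genes did.

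The spread between mice was small for most genes. The common biological coefficient of variation was 9.36% over 15667 genes, and the median coefficient of variation of genes of at least 1 CPM was 7.17%, where counting alone would give 3.68%. It fell from 15.2% at 1 to 3 CPM to 5.46% at 30 to 100 CPM and was 7.82% in the 85 genes above 1000 CPM. There counting alone would give 0.46%, so depth did not limit those genes. The 10 steadiest genes of at least 10 CPM were Faf2, Gucy1b3, Rnf4, Psma7, Srsf9, Mpnd, Myrip, Psd2, Rhobtb2 and Mpi. Gucy1b3, a subunit of the nitric oxide receptor, had 144, 144 and 144 CPM. Their coefficients of variation, 0.09 to 0.19%, lay below what counting alone gives, so their closeness in 3 libraries is no measure of how steady they are.

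**Figure D3:**
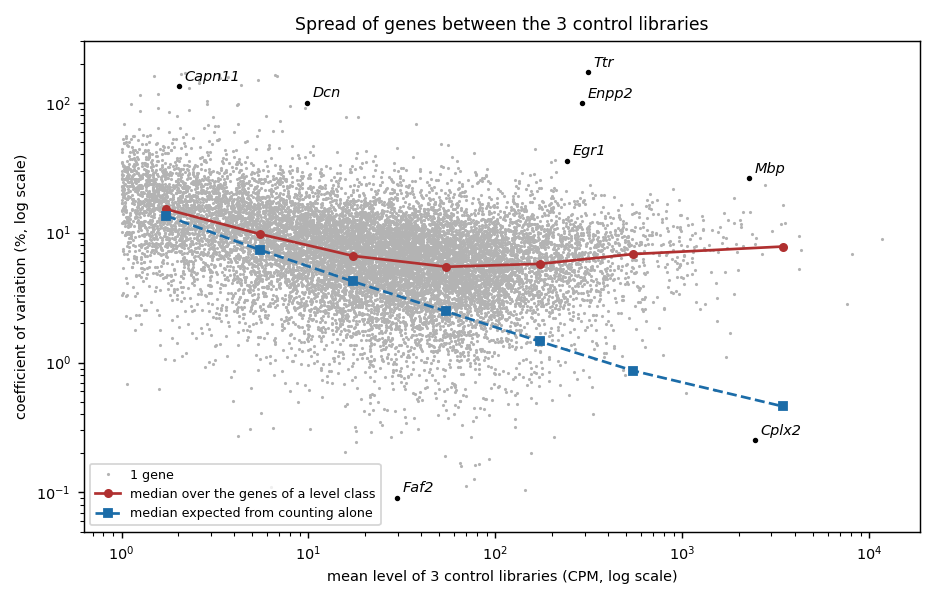
Coefficient of variation over the 3 control libraries (y axis, %, log scale) against mean CPM (x axis, log scale) for the 14508 genes of at least 1 CPM; red points are medians of level classes and blue squares the medians expected from counting alone. The red line falls to 5.46% at 30 to 100 CPM and stays near 8% in the highest class while the blue line goes on falling, and Ttr, Enpp2 and Dcn lie far above both.

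At least 2-fold between the highest and lowest library was reached by 187 of 14508 genes (1.29%), and at least 1.5-fold by 900 (6.2%). Of all 14508 genes, 34.8, 33.7 and 31.5% were highest in controls 1, 2 and 3, and 34.0, 34.8 and 31.2% were lowest there. Among the 427 family members of at least 1 CPM, 8 differed 2-fold (1.87%) and 52 differed 1.5-fold (12.2%). The 8 were Kcnj13 and Otx2, high in control 3, Rxrg, high in control 1, and Foxj1, Egr1, Egr2, Egr4 and Rara, low in control 1. By the library that stood apart, 90 of the 187 genes set off control 1 (40 high and 50 low), 64 control 3 (48 high and 16 low) and 33 control 2 (9 high and 24 low). Most were of low level: 111 had a mean of 1 to 3 CPM, where 6.27% of genes differed 2-fold, and 1 of 463 genes at 300 to 1000 CPM did. With 1 library left out, the 2-fold count fell from 187 to 71 without control 1, 117 without control 2 and 89 without control 3, and with a minimum of 5 CPM it fell to 48.

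Genes of the choroid plexus, the tissue in the ventricles that makes cerebrospinal fluid, made control 3 stand apart. Ttr, the thyroxine carrier that this tissue secretes, had 3.54, 3.07 and 930.2 CPM in controls 1, 2 and 3. All 12 choroid plexus markers were highest in control 3, and all 12 differed at least 1.5-fold. Enpp2, which oligodendrocytes also make, had 104, 144 and 623 CPM, Kl (klotho) 19.1, 26.3 and 66.8, and F5 0.540, 0.443 and 19.3. The summed level of the list was 131, 179 and 1707 CPM, and its mean log2 deviation spanned 4.28 over the 3 libraries and 0.06 without control 3. In controls 1 and 2 the defining genes Otx2, Kcne2 and Slc4a5 had at most 0.135 CPM, between 1 and 4 reads each. Of the 20 genes with the largest differences, 15 were high in control 3 alone: Ttr, Tmem72, Slc4a5, Clic6, Kcne2, Kcnj13, Folr1, F5, Cldn2, Otx2, Mfrp, Aqp1, Prlr, Col8a1 and 1500015O10Rik. The other 5 were Capn11, high in control 2, Col8a2 and Ccdc135, lowest in control 1 and highest in control 3, Col6a4, low in control 2, and Trhr, high in control 1. Igf2, made by meninges and choroid plexus, had 44.7, 36.3 and 85.5 CPM. The part of choroid plexus RNA in other differences of control 3 was not tested.

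Control 1 differed from the other libraries in markers of the ventral and dorsal hippocampus and in myelin genes. Dcn (decorin), Trhr (the receptor of thyrotropin-releasing hormone) and Grp (gastrin-releasing peptide), used here as markers of the ventral hippocampus, had 21.2, 2.94 and 5.48, 3.64, 0.411 and 0.627 and 19.7, 3.86 and 5.26 CPM. With Htr2c, at 21.5, 13.4 and 17.8, all 4 ventral markers were highest in control 1 and lowest in control 2. Their mean log2 deviation spanned 2.17, and 0.56 without control 1. Both dorsal markers, a list of only 2 genes, were lowest in control 1: Wfs1, given above, and Lct, at 84.6, 104 and 129 CPM. Wfs1 stands on the CA1 list too, and Lct on that of dentate granule cells. Dcn is also a gene of fibroblasts, and it stands on the list of meninges and fibroblasts too. Of the 10 genes there, 8 were highest in control 1 and 8 lowest in control 2, with Lum at 3.61, 1.80 and 2.60, Ogn at 5.20, 3.00 and 5.17 and Col1a1 at 9.38, 8.35 and 8.46 CPM. The summed level was 114, 72.8 and 138 CPM, highest in control 3 through Igf2 and Slc13a4. The part of fibroblasts in the level of Dcn was not tested. Calb2 (calretinin), which marks mossy cells of the ventral dentate gyrus and some interneurons, had 34.7, 8.41 and 12.3 CPM, and Rxrg 4.66, 1.33 and 0.940. Of 3 mossy cell markers of at least 1 CPM, 2 were highest in control 1. Drd2, which stands on the mossy cell list too, was highest in control 3. Nr2f2, a factor of the caudal and ventral hippocampus and of some interneurons, had 30.1, 15.7 and 14.9.

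All 12 oligodendrocyte markers were lowest in control 1. Mbp, the main structural protein of myelin, had 1601, 2748 and 2473 CPM and Mag 109, 188 and 186. Controls 2 and 3 were close together, and 9 of the 12 genes differed at least 1.5-fold. The list spanned 0.62 on the log2 scale, and 0.02 without control 1. The list of oligodendrocyte precursors showed no such difference, with summed levels of 399, 449 and 414 CPM and 1 of 9 genes over 1.5-fold, Sox10, which mature oligodendrocytes express too. Among ependymal markers, the cells with cilia that line the ventricle, Foxj1 had 4.28, 11.9 and 8.21, Ccdc153 0.607, 3.67 and 1.63 and Ak7 0.742, 3.35 and 2.04 CPM. These 3 were lowest in control 1 and highest in control 2. Of 6 ependymal markers, 4 reached 1 CPM, and all 4 were lowest in control 1. The axonemal dynein gene Dnah6, chosen after its values were seen, had 0.978, 4.30 and 4.04 CPM. Of CA1 markers 3 of 5 were lowest in control 1, and of CA2 markers 4 of 5, where 34.0% of all genes were lowest, so that lists of 5 say little here. Neurod6 had 165, 254 and 198, Rgs14 96.3, 153 and 138 and Amigo2 21.7, 35.5 and 28.3 CPM. What was cut out of each brain was not recorded per animal in the sources used here, and place of dissection and state of the animal cannot be told apart from these values.

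**Figure D4:**
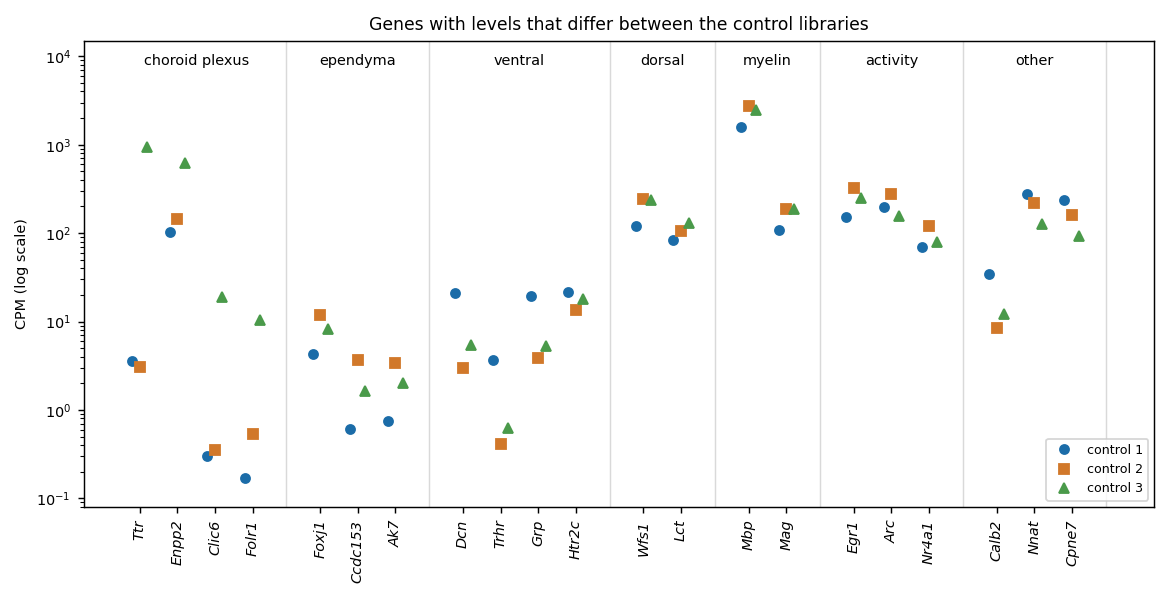
CPM (y axis, log scale) in controls 1, 2 and 3 of genes that differ between the libraries, grouped by marker list except for the last group. That group, called other, holds Calb2 of the mossy cell list, and Nnat and Cpne7, which are on no list and were named for their difference. The choroid plexus genes are high in control 3 alone, the ventral genes in control 1, and the ependymal and myelin genes are lowest in control 1.

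Of 20 genes that follow neuronal activity, 18 were highest in control 2, against 33.7% of all genes, and 13 differed at least 1.5-fold. The exceptions were Pcsk1, highest in control 1, and Inhba, highest in control 3. Egr1 had 153, 326 and 248 CPM, Arc, which acts at active synapses, 195, 278 and 158, and Nr4a1 69.1, 122 and 80.1. Npas4, an activity-induced factor of neurons, had 6.11, 10.6 and 7.27, and Nptx2 38.0, 61.4 and 44.2. The peptide precursor Vgf, not on the list, had 198, 296 and 225 CPM. The mean log2 deviation of the list from its own mean was -0.23, 0.34 and -0.11 in controls 1, 2 and 3, a span of 0.57, and of 0.13 without control 2. General neuronal genes (5 of 6) and CA1 markers (5 of 5) were highest in control 2 as well, and their part in this result was not tested. Of 17 genes of the circadian clock and its output, 0 differed 1.5-fold, with Dbp at 65.2, 66.4 and 77.3 and Per2 at 64.7, 65.2 and 69.2 CPM. Of all genes of at least 1 CPM 6.2% did, so that 0 of 17 is near that share. Of 13 glucocorticoid-induced genes, 10 were highest in control 1, against 34.8% of all genes, among them Tsc22d3 at 111, 72.0 and 71.2 and Fkbp5 at 113, 81.4 and 96.4. Sgk1 and Per1 were lowest there, Sgk1 at 89.7, 98.9 and 107 CPM. Of the 13 genes, 4 differed 1.5-fold, and the list spanned 0.33. Genes of endothelium (5 of 9) and of pericytes and smooth muscle (6 of 8) were highest in control 1 as well, and their part was not tested.

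Of 7 dentate granule markers, 6 were highest in control 3 and 6 lowest in control 2, against 31.5 and 34.8% of all genes. Dsp and Lct, 2 of the 7, differed 1.5-fold, as 6.2% of all genes did. Prox1 and Lct have been given above, and Dsp (desmoplakin) had 28.4, 24.1 and 39.8 and C1ql2 132, 128 and 167 CPM. Cpne7, chosen for its difference, was lowest in control 3, with 234, 159.7 and 92.2, as were Nnat (neuronatin) with 275, 220.2 and 127 and Oxtr, the oxytocin receptor, with 11.1, 10.4 and 5.01. Each of those 3 genes was at least 2-fold lower in control 3 than in control 1. Of 6 CA3 markers, 4 were highest in control 2 and 2 in control 1, against 33.7 and 34.8% of all genes, and 3 differed 1.5-fold. The mean log2 deviation of that list was -0.01, 0.13 and -0.11. Lists of 6 or 7 genes say little here.

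Of 35 marker and programme lists, 10 had means that spanned more than 0.5 on the log2 scale: choroid plexus, ventral and dorsal hippocampus, ependyma, mossy cells, meninges, CA1, CA2, oligodendrocytes and activity. Without control 1, 4 lists did. Astrocyte genes spanned 0.09, with Gfap, which rises in reactive astrocytes, at 432, 533 and 536 CPM and Slc1a2 at 1228, 1207 and 1137. Of 12 genes of reactive astrocytes, 9 reached 1 CPM and 1 of those, Cp, differed 1.5-fold, while Lcn2, a gene of strong injury, had 3 counts or fewer in every library. Of 11 microglial genes, 0 differed 1.5-fold, with Cx3cr1 at 54.3, 59.8 and 57.7 CPM. Over all genes of at least 1 CPM the share was 6.2%, so that 0 of 11 is near it. Of 14 interferon-induced genes, 11 reached 1 CPM and 2 of those, Ifit3 and Rtp4, differed 1.5-fold. Ifit1 had 1.42, 1.33 and 1.13, Irf7 1.42, 1.45 and 2.04 and Isg15 1.35, 1.08 and 1.28 CPM, and Mx1 had 4 reads or fewer in each library, while B2m stood at 51.0, 58.2 and 55.8. Hemoglobin genes, a sign of blood left in the tissue, did not stand apart, with Hbb-bs at 30.1, 25.3 and 28.2. Interneuron genes were close, Gad2 with 119, 120.4 and 116 and Sst with 132, 150.4 and 127, except Kit at 111, 70.0 and 49.2 and Vip at 12.3, 8.00 and 7.74, both highest in control 1.

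**Figure D5:**
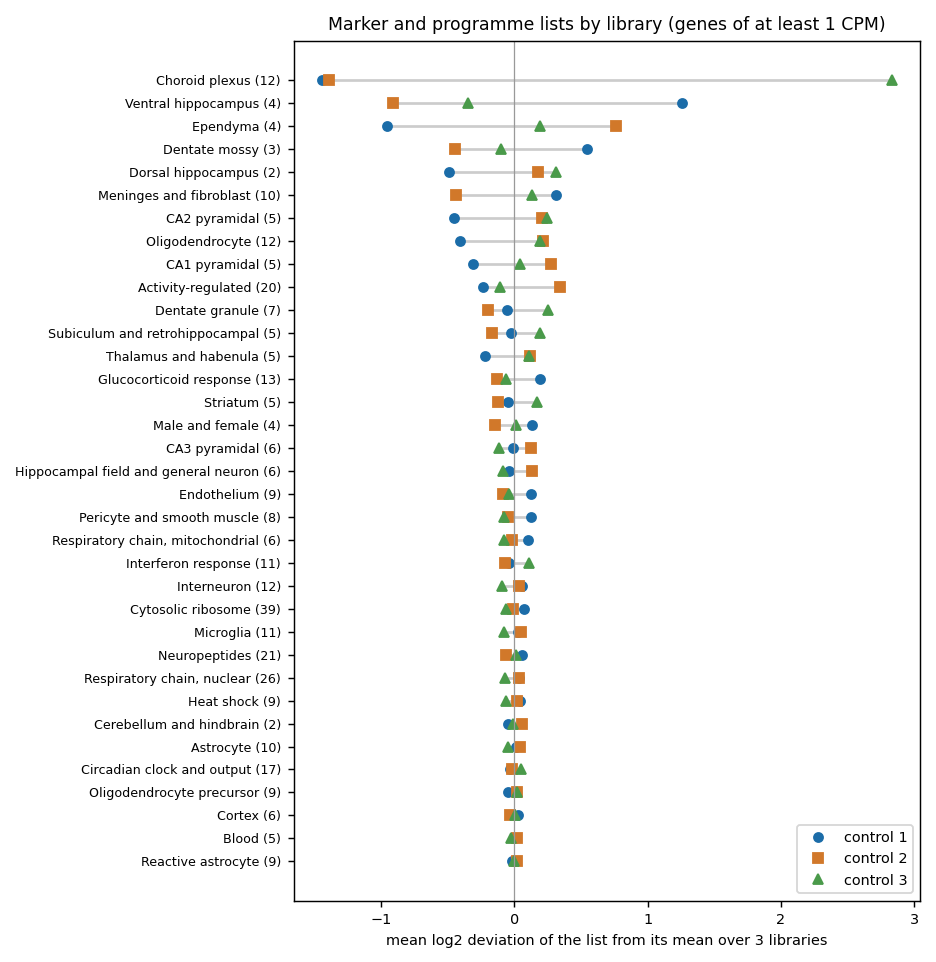
Mean log2 deviation of each list from its mean over the 3 control libraries (x axis), for 35 marker and programme lists with the number of genes of at least 1 CPM in parentheses; circles, squares and triangles are controls 1, 2 and 3. The choroid plexus list spans 4.28, the ventral list 2.17 and the ependymal list 1.72, while most lists lie within 0.5.

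Several genes that every cell uses had low values, and many of these share sequence with other genes. Gapdh, a glycolytic enzyme of every cell, had 4.52, 4.55 and 3.82 CPM, and 28.1% of its transcript windows also occur elsewhere. Ppia had 2.23, 2.12 and 2.07 CPM with 20.9% shared. Both were chosen after their values were seen. Hprt, with no shared window, had 85.3, 81.8 and 80.3. Of 41 ribosomal protein genes, 28 had more than 20% of their windows shared, against a median of 1.56% over all genes of at least 1 CPM. Their means ran from 0.762 to 309 CPM, and 11 were under 10 CPM, although the proteins are made in equal numbers. Of the 13 mitochondrial protein genes, 6 had 3 counts or fewer in every library, mt-Nd3, mt-Nd4, mt-Nd4l, mt-Co3, mt-Atp6 and mt-Atp8, while mt-Co1 had 12956, 11391 and 10956 CPM. In 5 of the 6 at least 62.8% of windows were shared, but only 7.47% were in mt-Atp8, and 63.9% were in the abundant mt-Co1. Whether reads of shared sequence were dropped in counting was not tested. More than 20% of windows were shared in 36 of the 497 family members, among them Actg1, at 19.2, 19.2 and 16.5 CPM per kb against 367, 462 and 436 for Actb.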

How the data were processed

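RNA was measured by polyA RNA-seq, with libraries made from 1.5 µg of total RNA that did not keep strand. The authors deposited raw read counts per gene, per the file headers. Build mm9 and 5 tools are listed by the submitters' processing notes: HTSeq (0.6.1), TopHat (1.4.1), R (3.1.1) with DESeq2 (1.4.5), and SAMtools (0.1.19). Settings and gene annotation are not given in the sources used here. Columns were matched to labels by name, and 0 per-sample columns lacked a label.

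The 3 control columns were scaled by TMM in edgeR 4.0.16 (R 4.3.3), and the dispersion came from an intercept-only model after filterByExpr. CPM use TMM-scaled sizes. Lengths (exons or coding sequence merged over isoforms), exon overlaps of at least 100 bases and shared 31-base windows came from GENCODE M21 (GRCm38), which is not the build of the counts; 26708 of 31804 genes had a length there, and genes matched on their Ensembl identifiers. The deposited table itself named 20478 genes, and a names list gave symbols to another 6546. A list's deviation is the mean over its genes of at least 1 CPM of log2(CPM + 0.1) minus the gene's own mean; a range between libraries is on the same scale. Expected counting error is that of Poisson counts, and values such as floors of 3 counts cover counting error only. No pair of libraries matched within sampling noise (chi-square per degree of freedom 13.9 to 16.7). The spread estimate was checked on simulated counts. Python 3.11.15, numpy 2.4.6, pandas 2.3.3 and matplotlib 3.10.9 were used.

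No test was run, since there is 1 group. Members and lists were chosen with earlier results of these data known. Named are the 15 highest nuclear genes per kb, leading and neighbouring family members, the 20 most and 10 least variable genes, members of lists that differ 1.5-fold, and defining markers; further genes named for their difference or their shared sequence were chosen after their values were seen. Of the list members, 13 had no row by their symbol and are not analysed here, and some genes that this rule names are not reported here. Alternatives were DESeq2 1.42.0 size factors, library size alone, other filters, other lengths (the coding length was added after seeing the data) and leaving out each library.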

Additional observations from a re-analysis of the deposited data

How the results depend on the processing

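No paired analysis was possible because there is 1 group and no contrast. Under every alternative run, 14466 to 14557 genes had at least 1 CPM and 83 to 87 families had the same highest member in each library. The common biological coefficient of variation was 8.68 to 9.62% when 1 library was left out, lowest without control 1. The number of genes that differed at least 2-fold fell to 48 with a minimum of 5 CPM and lay between 71 and 117 when 1 library was left out: 71 without control 1, 117 without control 2 and 89 without control 3. The number of lists spanning over 0.5 was 4 to 9 without 1 library, and 4 without control 1. Without control 3 the choroid plexus list spanned 0.06 in place of 4.28, and without control 1 the oligodendrocyte list spanned 0.02 in place of 0.62; leaving out a library leaves fewer values to span. DESeq2 size factors or library size alone gave 186 and 187 genes that differed 2-fold, and 247 passed among the genes that filterByExpr keeps. Depth limits genes under about 10 CPM: counting alone gives a median coefficient of variation of 13.5% of the 15.2% seen at 1 to 3 CPM, and 7.39 of 9.77% at 3 to 10 CPM. The annotation is of another build than the counts, so lengths, and with them the order of members of unlike length, are uncertain.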
